A study of Danio rerio with 6 samples.

Results

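Nuclear genes of the 5 complexes of oxidative phosphorylation were followed in the zebrafish telencephalon, the most anterior part of the brain. They were taken by symbol, as the genes whose names start with nduf (complex I), sdh (complex II), uqcr or cyc1 (complex III), cox4 to cox8 (complex IV) or atp5 (complex V). This gave 86 genes from 93 probe sets, of 8793 named genes on the array, with 39 genes in complex I, 7 in complex II, 8 in complex III, 14 in complex IV and 18 in complex V. The prefixes also take 9 assembly factors (ndufaf and sdhaf genes) and 2 inhibitors of the ATP synthase (atp5if1a and atp5if1b), which leaves 75 genes named as subunits. Another 2 probe sets matched more than 1 gene and were left out.

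The treated fish were sexually mature males held for 10 days in water with fadrozole at 200 µg/L, and the control fish were sexually mature males without that exposure, as far as the labels say. Fadrozole blocks aromatase, the enzyme that makes estrogens from androgens. No strain or age in months is given for either group. There were 3 arrays per group, each from pooled RNA of about 30 telencephalons, so differences between single fish cannot be seen and p-values measure the spread between these pools, which may be technical.

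In the inner mitochondrial membrane, complexes I and II pass electrons from NADH and succinate to coenzyme Q, complex III passes them on to cytochrome c, and complex IV hands them to oxygen. Complexes I, III and IV pump protons, and complex V, the ATP synthase, uses the proton gradient to make ATP. Neurons depend heavily on this pathway to pay for ion pumping and synaptic transmission. Other core subunits are encoded in mitochondrial DNA and are not among the genes described here.

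The deposited values are ratios of each probe set to its median over the 3 control arrays. They are given here as log2 levels relative to the control median, after each array's overall shift was removed. A gene on the control array that sets the median therefore reads 0.11, -0.25 or 0.14 on control replicates 1, 2 and 3, which is that array's own shift with its sign turned. The ratios hold no signal level, so levels of different genes cannot be compared and the tissue label could not be checked by which markers are present. Of the telencephalic markers 9 of 10 were measured, with log2 differences from -0.17 to 0.14, and those with the smallest p were the forebrain transcription factor genes emx2 at -0.17 ± 0.31 and emx1 at -0.13 ± 0.27. In pooled tissue, fewer cells of a type and less RNA per cell cannot be told apart.

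Transcripts of the oxidative phosphorylation genes lay close to control levels after fadrozole. Over the 86 genes the median log2 difference, fadrozole minus control, was -0.01, against 0.00 over all genes, and 38 were higher and 48 lower. A difference below 0 was found in 55.8% of members and 50% of all genes. The median size of the difference, without its sign, was 0.08 for the members and 0.27 for all genes. At least 1.5-fold differences were found in 5 of the 86, or 5.81%, against 26.9% of all genes. Members also varied less between arrays of the same group, with a median SD of 0.18 against 0.53 for all genes. Low spread was not particular to them. The lists described further below had median SDs from 0.20 (neuron markers) to 1.15 (muscle markers), with 0.24 for the citric acid cycle. Whether the members' differences were small beyond what their lower spread gives was not tested.

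Of the members 0 passed limma's test at an adjusted p of 0.05, and 0% of all genes did, and the smallest adjusted p of a member was 0.999 over 8793 genes. At an unadjusted p under 0.05 limma gave 2 members, 1 higher (ndufaf8) and 1 lower (uqcrc2a), which is 2.33% of the 86 against 4.09% of all genes (2.12% higher and 1.98% lower). Values of single genes below are therefore measurements that did not pass the test. For 76 of the 86 genes the 95% interval of the log2 difference lay wholly between -1 and 1, a difference of under 2-fold either way, while this held for 33.7% of all genes. The number of genes tested does not enter these intervals, which are those of single genes. Their width follows the standard error, with a median of 0.24 for members and 0.41 for all genes.

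**Figure D1:**
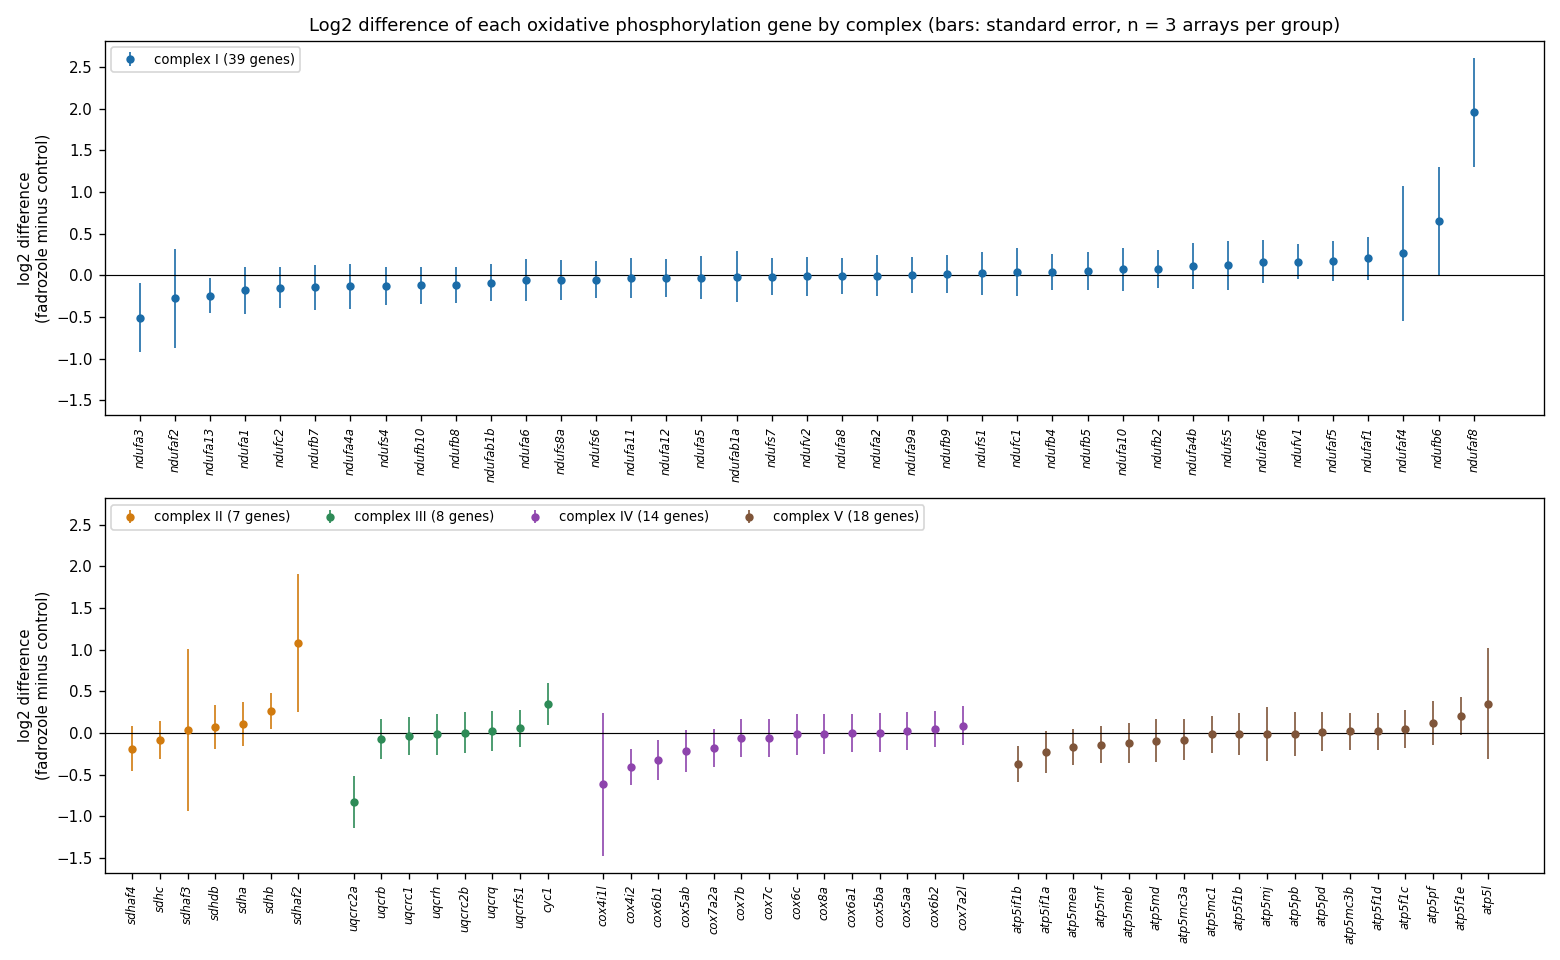
Log2 difference, fadrozole minus control, of each of the 86 genes, ordered by size within each complex; points are gene means over probe sets and bars the limma standard error (n = 3 arrays per group). Most points lie near 0 with bars that cross it, and the widest departures are ndufaf8 at 1.96, sdhaf2 at 1.08 and uqcrc2a at -0.82.

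The complexes differed little in their medians. The median log2 difference was -0.01 for complex I (17 genes higher, 22 lower), 0.07 for complex II (5 higher, 2 lower), -0.01 for complex III (4 higher, 4 lower), -0.04 for complex IV (5 higher, 9 lower) and -0.01 for complex V (7 higher, 11 lower). The median level of a complex varied between arrays of 1 group by an SD of 0.11 for complex I, 0.14 for complex II, 0.12 for complex III, 0.13 for complex IV and 0.08 for complex V. Each of the 5 median differences was smaller than that spread. In every complex at least 1 control median behind this SD is set by the division by the control median, so the SD is only a rough yardstick.

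Array by array, the median level over complex I was 0.11, 0.11 and 0.10 on fadrozole replicates 1, 2 and 3, against 0.11, 0.35 and 0.08 on control replicates 1, 2 and 3. For complex II it was 0.03, 0.41 and 0.15 on the fadrozole arrays and 0.11, 0.19 and 0.14 on the control arrays. For complex III it was 0.07, 0.15 and 0.19 on the fadrozole arrays and -0.04, 0.27 and 0.14 on the control arrays. The groups overlapped in all 3 complexes.

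For complex IV the median level was 0.06, -0.05 and 0.17 on the fadrozole arrays, against -0.01, 0.27 and 0.14 on the control arrays. For complex V it was -0.002, -0.03 and 0.16 on the fadrozole arrays, against 0.08, 0.19 and 0.14 on the control arrays. Control replicate 2 had the highest control value in every complex, while the median over all genes was lowest on that array, at -0.15. A gene that sets the control median reads -0.25 there, below that all-gene median, and such genes were not counted. Medians of 0.11 on control replicate 1 (complexes I and II) and 0.14 on control replicate 3 (complexes II to V) equal those arrays' shifts with the sign turned. So do the all-gene medians of both arrays, and such values follow from the division by the control median.

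**Figure D2:**
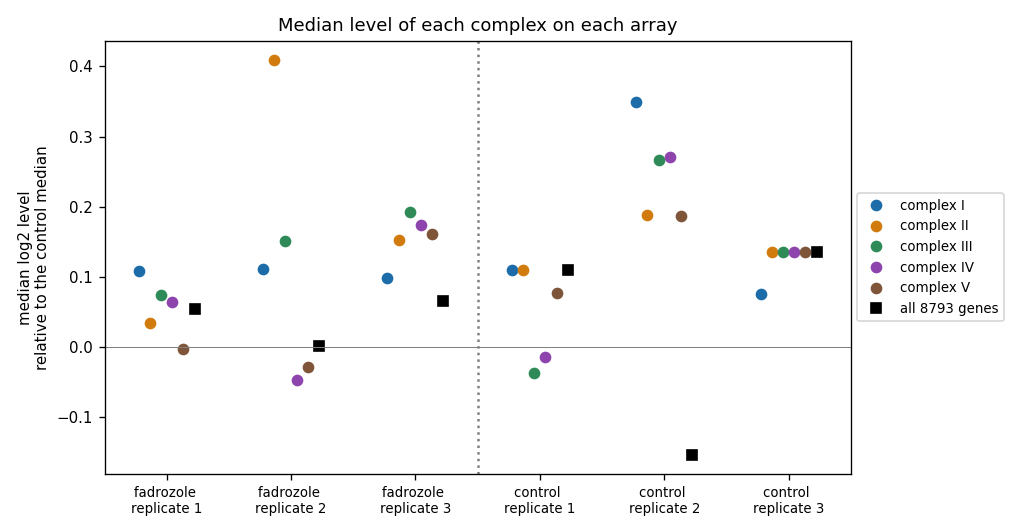
Median log2 level relative to the control median of the genes of each complex (circles) and of all 8793 genes (black squares) on each of the 6 arrays, with fadrozole arrays left of the dotted line and control arrays right of it. Control replicate 2 stands apart, with complex medians between 0.19 and 0.35 and an all-gene median of -0.15. Medians of 0.11 on control replicate 1 and 0.14 on control replicate 3 follow from the division by the control median.

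Control replicate 2 was the highest of the 6 arrays for 44 of the 86 members, or 51.2%, against 18.8% of all genes. The lowest array was control replicate 1 for 28 members, or 32.6%, against 16.6% of all genes. It was fadrozole replicate 2 for 20 (23.3%, against 16.2%) and control replicate 3 for 19 (22.1%, against 19.4%). The slide numbers in the labels form 2 runs, a larger one with replicates 1 and 3 of both groups and a smaller one with replicate 2 of both groups. Within the larger run 28 of the 86 members were lower on the fadrozole arrays (47.7% of all genes), with a median of 0.08, and within the smaller run 67 were lower (52.7% of all genes), with a median of -0.23.

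In the smaller run all 14 genes of complex IV were lower, with a median of -0.29, against 4 of 14 and a median of 0.11 in the larger run. Complex I had a median of 0.09 within the larger run and -0.22 within the smaller one, complex II 0.15 and -0.02, complex III 0.10 and -0.12, and complex V 0.03 and -0.23. The smaller run has 1 array per group and so no spread of its own. The difference between runs was tested gene by gene in limma as an interaction of group and run, a test chosen after the data were seen. This test takes its spread between arrays from the larger run alone and cannot tell a difference between runs from 1 deviant array in the smaller run. It gave 1 member (cox4i1l) at an unadjusted p under 0.05, or 1.16%, against 4.53% of all genes, and 0 past an adjusted p of 0.05. The interaction is the smaller run's difference minus the larger run's, so its sign restates the split above. It was negative in 71 of the 86 members, or 82.6%, against 53.9% of all genes. Its median was -0.27 for members and -0.07 for all genes. Without control replicate 2, 26 of the 86 members were lower instead of 48. Its part in the split between runs was not tested.

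**Figure D3:**
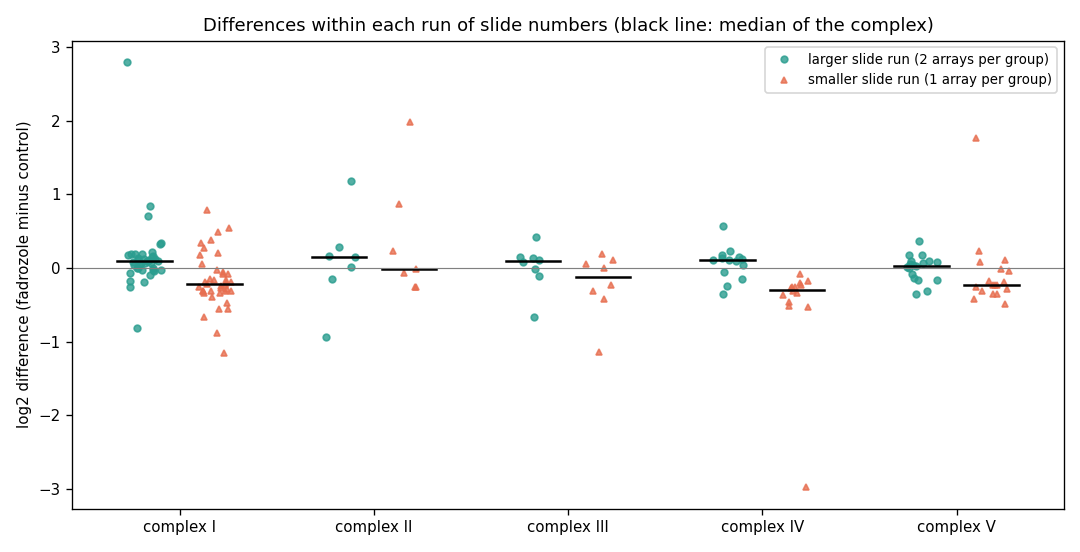
Log2 difference, fadrozole minus control, of each member within the larger slide run (circles, 2 arrays per group) and the smaller slide run (triangles, 1 array per group), by complex; black lines are medians. The triangles centre below the circles in every complex, with medians from -0.29 to -0.02 in the smaller run and from 0.03 to 0.15 in the larger one.

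Members varied little between arrays of the same group. The within-group SD of the log2 level had a median of 0.18 over the 86 genes and of 0.53 over all genes, and 77 of the 86 lay below the all-gene median. The subunits had a median SD of 0.17, with 71 of 75 below the all-gene median, and the 9 assembly factors a median SD of 0.83, with 4 of 9 below it. Without signal levels it was not tested whether the assembly factors are the dimmer probe sets. As limma draws the variance of each gene towards that of the whole array, the median standard error of the members was 0.24, more than their own spread would give.

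**Figure D4:**
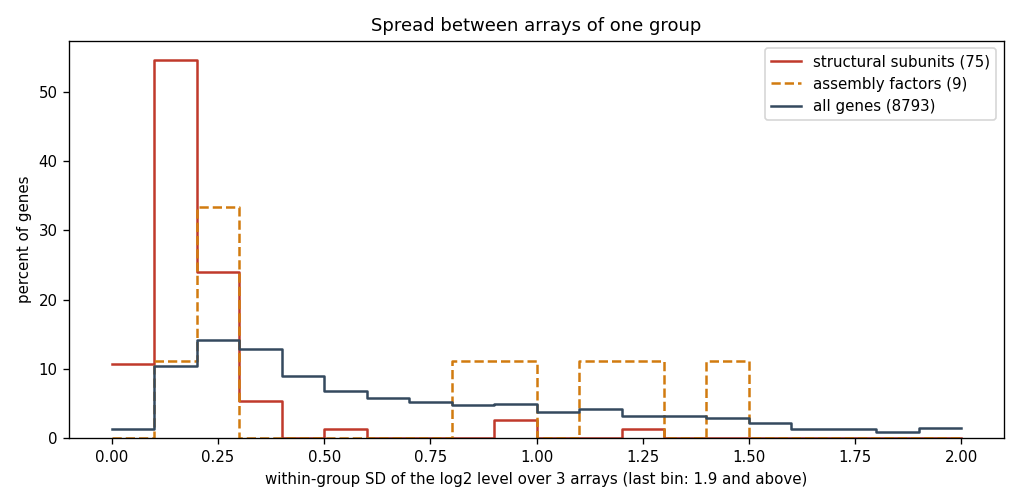
Percent of genes (vertical axis) by within-group SD of the log2 level over 3 arrays (horizontal axis, bins of 0.1) for 75 subunits, 9 assembly factors and all 8793 genes. The subunits crowd at the low end (median 0.17). The 9 assembly factors run from 0.17 to 1.43 (median 0.83), and all genes reach 3.87 (median 0.53).

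In 9 of the 86 members, or 10.5%, the 3 fadrozole arrays did not overlap the 3 control arrays, 3 of them higher and 6 lower. Over all genes the groups did not overlap in 7.82% (3.93% higher and 3.89% lower). With 3 against 3 arrays, any gene without overlap has a two-sided exact permutation p of 0.1, and none smaller can be reached. That p follows from the lack of overlap and is no separate test of the 9. These 9 members came from all 5 complexes, with 4 in complex I, 2 in complex IV and 1 in each of the others.

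**Figure D5:**
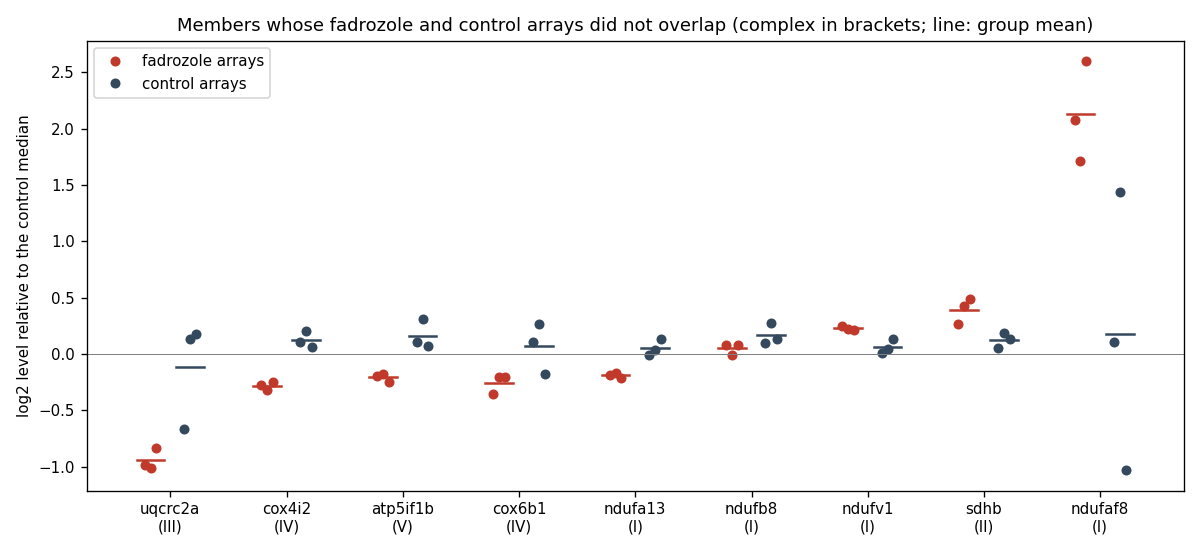
Log2 level relative to the control median on each fadrozole array (left of each pair, red) and control array (right, dark) for the 9 members whose groups did not overlap; short lines are group means and the complex stands in brackets. Most of these differences are small, from -0.41 to 0.27, apart from uqcrc2a at -0.82 and ndufaf8 at 1.96.

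Complex I takes electrons from NADH through ndufv1, which carries the NADH-binding flavin site. Its level was 0.25, 0.22 and 0.21 on the fadrozole arrays, against 0.01, 0.05 and 0.14 on the control arrays. All 3 fadrozole arrays were higher, with a log2 difference of 0.16 ± 0.21 (SE, n = 3 per group; limma unadjusted p 0.466). The large iron-sulfur subunit ndufs1, the next step of the electron path, was at 0.01, 0.45 and -0.07 on the fadrozole arrays and 0.11, 0.25 and -0.04 on the control arrays. Its groups overlapped, with a difference of 0.02 ± 0.26. The 8 measured ndufs and ndufv genes ranged from -0.13 to 0.16, and the 5 core subunits among them from -0.06 to 0.16.

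Accessory subunits surround this core. Among them ndufa13, known in mammals also as GRIM-19, was at -0.19, -0.17 and -0.21 on the fadrozole arrays and -0.01, 0.04 and 0.14 on the control arrays. All fadrozole arrays were lower, at -0.24 ± 0.21. The subunit ndufb8 was at 0.08, -0.01 and 0.08 on the fadrozole arrays, against 0.10, 0.27 and 0.14 on the control arrays, which gave -0.12 ± 0.21. Its groups came within 0.02 of each other.

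The accessory subunit ndufa3 had the second smallest p of the complex, with -0.31, -0.04 and -0.28 on the fadrozole arrays and -0.36, 1.12 and 0.14 on the control arrays. Control replicate 2 alone was high, and the difference was -0.51 ± 0.42, or -0.10 without that array. The 15 ndufa and ndufab1 genes had a median of -0.03 and 12 lower members, and the 8 ndufb genes a median of 0.03 and 3 lower members. The paralogues ndufab1a and ndufab1b, which encode the mitochondrial acyl carrier protein, were at -0.02 ± 0.31 and -0.09 ± 0.22.

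The pair ndufa4a and ndufa4b was at -0.14 ± 0.27 and 0.11 ± 0.28. Its mammalian protein was first named as a part of complex I and is now counted with complex IV. Counted there, the pair leaves the medians at -0.01 for complex I and -0.04 for complex IV. The 2 probe sets of ndufb6 differed, one at -0.05 ± 0.26 and the other at 1.34 ± 1.22, where fadrozole replicates 1 and 2 were at 2.29 and 2.14 and fadrozole replicate 3 at -1.33. The mean of both gave the gene 0.65 ± 0.66, which rests on the second, widely spread probe set.

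Assembly factors help to build complex I without staying in it. For ndufaf8, which in humans works with ndufaf5, the fadrozole arrays were at 2.08, 1.71 and 2.60, against 0.11, 1.44 and -1.03 on the control arrays. The fadrozole arrays were all higher, but the control arrays had an SD of 1.24, and fadrozole replicate 2 lay 0.27 above control replicate 2. The difference was 1.96 ± 0.66, or 3.88-fold, with a limma p of 0.0247 before adjustment and 0.999 after it. It came from a single probe set and ran from 1.35 without control replicate 3 to 2.59 without control replicate 2. It was 2.80 in the larger run of slides and 0.27 in the smaller. The partner ndufaf5 was at 0.17 ± 0.24, and of all 6 ndufaf genes 5 were higher, with a median of 0.19.

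Complex II, succinate dehydrogenase, links the citric acid cycle to the respiratory chain. Its iron-sulfur subunit sdhb was at 0.27, 0.42 and 0.49 on the fadrozole arrays, against 0.06, 0.19 and 0.14 on the control arrays. All 3 fadrozole arrays were higher, at 0.27 ± 0.22 (95% interval from -0.27 to 0.80), with 0.28 in the larger run of slides and 0.23 in the smaller. The flavoprotein sdha was at 0.07, 0.41 and 0.22 on the fadrozole arrays and 0.11, 0.43 and -0.15 on the control arrays. It overlapped, at 0.11 ± 0.26. The membrane anchors sdhc and sdhdb were at -0.08 ± 0.23 and 0.07 ± 0.27.

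Among the assembly factors of complex II the within-group spread had a median SD of 1.20, against 0.18 among its subunits. For sdhaf2, which in humans helps to attach flavin to SDHA, the fadrozole arrays were at -0.16, 0.61 and 0.15, against -2.76, -0.25 and 0.38 on the control arrays. Control replicate 1 alone was low, and the difference of 1.08 ± 0.83 was 0.14 without it. The other two, sdhaf4 and sdhaf3, were at -0.19 ± 0.27 and 0.04 ± 0.98.

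In complex III the gene uqcrc2a encodes a core protein that faces the matrix. Its mean level was -0.98, -1.01 and -0.84 on the fadrozole arrays, against -0.67, 0.13 and 0.18 on the control arrays. All fadrozole arrays were lower, at -0.82 ± 0.31, or 1.77-fold, with a limma p of 0.0375 before adjustment and 0.999 after it.

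The 2 probe sets of uqcrc2a went opposite ways. The first was at 0.44, 0.68 and 0.46 on the fadrozole arrays and 0.05, 0.51 and 0.14 on the control arrays, a difference of 0.29 ± 0.27. The second was at -2.41, -2.70 and -2.14 on the fadrozole arrays and -1.38, -0.25 and 0.22 on the control arrays, a difference of -1.94 ± 0.48. The gap between them, second minus first, averaged -2.94 ± 0.40 on the fadrozole arrays and -0.70 ± 0.76 on the control arrays (SD, n = 3). Its exact permutation p of 0.1 is no independent test, as these probe sets were singled out for differing in this same contrast. The gene's lower value is that of 1 probe set, and which part of the transcript each probe set reads is not given in the sources used here. The paralogue uqcrc2b, from 1 probe set, was at 0.00 ± 0.25.

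The other genes of complex III overlapped between groups, and all but cyc1 lay between -0.07 and 0.06. Cytochrome c1, cyc1, which passes electrons to cytochrome c, was at 0.46, 0.76 and 0.58 on the fadrozole arrays, against 0.06, 0.57 and 0.14 on the control arrays. Fadrozole replicate 1 lay below control replicate 2, which was the highest control array, and the difference was 0.35 ± 0.26. The Rieske iron-sulfur protein uqcrfs1 was at 0.06 ± 0.22 and the small subunit uqcrb at -0.07 ± 0.24.

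Complex IV, cytochrome c oxidase, holds cox4i2, a nuclear regulatory subunit whose mammalian form is induced by low oxygen. It was at -0.28, -0.32 and -0.25 on the fadrozole arrays, against 0.11, 0.21 and 0.06 on the control arrays. Every fadrozole array lay at least 0.31 below every control array, with a group SD of 0.04 and 0.07, and the log2 difference was -0.41 ± 0.21, or 1.33-fold (95% interval from -0.93 to 0.11; limma unadjusted p 0.104). With any 1 array left out it stayed between -0.44 and -0.37, and it was -0.35 in the larger run of slides and -0.53 in the smaller. With each gene's own variance in place of limma's shared one, its unadjusted p was 0.00108, the smallest of any member, and its adjusted p 0.974.

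The other measured cox4 gene, cox4i1l, was at -0.30, -2.07 and 1.21 on the fadrozole arrays, against -0.36, 0.90 and 0.14 on the control arrays. Its SD on the fadrozole arrays alone was 1.64, so its difference of -0.62 ± 0.86 gives no direction. It was 0.56 in the larger run of slides and -2.98 in the smaller.

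The intermembrane-space subunit cox6b1 was at -0.35, -0.20 and -0.20 on the fadrozole arrays, against 0.11, 0.26 and -0.17 on the control arrays. The groups did not overlap but came within 0.03, at -0.32 ± 0.24. Its relative cox6b2 was at 0.05 ± 0.22. The paralogues cox5aa and cox5ab were at 0.02 ± 0.23 and -0.21 ± 0.25, and cox7a2a and cox7a2l, of which the second helps in mammals to join complexes III and IV, at -0.18 ± 0.23 and 0.09 ± 0.23. The 6 other genes of complex IV (cox5ba, cox6a1, cox6c, cox7b, cox7c and cox8a) lay between -0.06 and 0.01.

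Complex V makes ATP in its F1 head, which is held by a stalk on the membrane-bound Fo ring. The catalytic beta subunit atp5f1b was at 0.01, 0.23 and 0.24 on the fadrozole arrays and 0.11, 0.47 and -0.06 on the control arrays, a difference of -0.01 ± 0.25. The small epsilon subunit atp5f1e was at 0.39, 0.52 and 0.20 on the fadrozole arrays, against 0.10, 0.29 and 0.14 on the control arrays. It overlapped and differed by 0.20 ± 0.23. The 4 F1 genes ranged from -0.01 to 0.20.

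The ring of c subunits, which turns as protons pass, is encoded by atp5mc1, atp5mc3a and atp5mc3b, at -0.02 ± 0.22, -0.08 ± 0.24 and 0.02 ± 0.22. Subunit e, which helps to pair ATP synthases, has the paralogues atp5mea and atp5meb, at -0.16 ± 0.22 and -0.12 ± 0.24. The membrane subunit gene atp5l had 2 probe sets, one at -0.08 ± 0.25 and the other at 0.79 ± 1.31, which read -4.06 on control replicate 2.

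The inhibitory factors keep the ATP synthase from running backwards and using up ATP. For atp5if1b the fadrozole arrays were at -0.20, -0.17 and -0.25, against 0.11, 0.31 and 0.07 on the control arrays. All fadrozole arrays were lower, at -0.37 ± 0.22, or 1.29-fold, with -0.31 in the larger run of slides and -0.48 in the smaller. For atp5if1a they were at -0.13, -0.59 and -0.16, against 0.11, -0.23 and -0.06 on the control arrays. These overlapped, at -0.23 ± 0.25, so that both inhibitors were lower but neither passed the test.

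With each gene's own variance, an alternative chosen after the data were seen, limma's fit gave 6 of the 86 members an unadjusted p under 0.05, or 6.98%, against 3.53% of all genes. They were cox4i2, ndufa13, atp5if1b, ndufv1, sdhb and uqcrc2a, while ndufaf8 was no longer among them. The smallest adjusted p of a member was 0.974, so none passed there either.

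Genes that work next to the complexes were also compared. Of 22 measured genes on a list for the citric acid cycle and pyruvate dehydrogenase, 13 were higher, with a median of 0.05. These counts include dld, in zebrafish the gene of a Notch ligand and not of the cycle, at 0.01 ± 0.22. They also include the cytosolic malate dehydrogenase genes mdh1aa at 0.18 ± 0.22 and mdh1ab at -0.09 ± 0.35. The 2 with the smallest p were suclg2, a subunit of succinyl-CoA synthetase, at 1.57 ± 0.77, and ogdha, of the oxoglutarate dehydrogenase complex, at 0.48 ± 0.25. For suclg2 the fadrozole arrays were at 1.28, 1.60 and 1.76 against -1.65, 1.45 and 0.14 on the control arrays, which overlapped, and without control replicate 1 the difference was 0.76. For ogdha they were at 0.69, 0.26 and 0.81 against 0.11, 0.22 and -0.02, with no overlap.

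Of 17 genes for assembly of complexes III to V, 11 were higher, with a median of 0.04, and fastkd2, which acts on mitochondrial RNA, was at -1.10 ± 0.45. Its fadrozole arrays were at -1.31, 0.09 and -1.32 against 0.10, 0.51 and 0.14 on the control arrays. The next smallest p was that of uqcc3, at 0.35 ± 0.27. Of 9 genes of cytochrome c and coenzyme Q synthesis 5 were higher, with a median of 0.03, led by pdss1, which makes the side chain of coenzyme Q, at 0.61 ± 0.30, and coq8aa at 0.53 ± 0.46. The fadrozole arrays of coq8aa were at 0.21, 0.47 and -0.45, against -1.24, 0.18 and -0.28 on the control arrays. Control replicate 1 was its lowest array, and without it the difference was 0.13.

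The 13 genes of mitochondrial carriers, channels and creatine kinases had a median of -0.08 and 8 lower members. The uncoupling protein gene ucp3 was at -0.39, -1.64 and -1.21 on the fadrozole arrays, against 0.11, 0.61 and -0.43 on the control arrays. Its difference of -1.18 ± 0.44 had a limma unadjusted p of 0.0366, and the groups overlapped. The phosphate carrier slc25a3a was at -0.58 ± 0.45. Of 14 genes of mitochondrial biogenesis and mitochondrial DNA upkeep 8 were higher, with a median of 0.11. Those with the smallest p were the transcription factors gabpa at -0.36 ± 0.36 and yy1a at 0.23 ± 0.25. Of the 75 genes in these 5 groups 1, ucp3, had an unadjusted p under 0.05 (1.33%), against 4.09% of all genes, and 0 passed after adjustment over all genes.

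Markers of other cells were read beside these values. Neuron markers had 5 of 7 lower and a median of -0.04, with the growth cone gene gap43 at -0.16 ± 0.21 and elavl4, an RNA-binding protein of neurons, at 0.20 ± 0.27. Median levels over the neuron markers were 0.09, 0.10 and 0.07 on the fadrozole arrays and 0.11, 0.39 and -0.04 on the control arrays, so control replicate 2 was the highest array there too. The same held for the telencephalic markers (0.49 on that array). Among the mitochondrial and redox lists it held for assembly of complexes III to V (0.24 on that array) and carriers (0.23). It also held for mitochondrial import (0.32) and antioxidant enzymes (0.30). It did not hold for the citric acid cycle list, at 0.13 there and 0.27 on fadrozole replicate 2. Nor did it hold for cytochrome c and coenzyme Q (-0.08 on control replicate 2) or mitochondrial biogenesis (0.01). Muscle, a tissue rich in mitochondria, had 7 of 12 markers lower and a median of -0.11, with single markers from -1.46 to 1.08 and the troponin genes tnni2a.4 at 1.07 ± 0.44 and tnnt3b at -1.46 ± 0.84 first by p.

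Some single markers of the other cells lay far from their list's median. The 7 radial glia markers had a median of 0.06, but her4.2, a transcriptional repressor induced by Notch signalling, read -1.02, -0.53 and -0.59 on the fadrozole arrays, against 0.03, -0.01 and 0.09 on the control arrays. The groups of her4.2 did not overlap, and its difference was -0.75 ± 0.25, while s100b was at 0.20 ± 0.28. The 5 markers of microglia and other leukocytes had a median of -0.17, and ptprc, the leukocyte surface phosphatase CD45, lay opposite to it. Its fadrozole arrays were at 2.28, 2.74 and 0.94, against 0.11, 1.12 and 0.11 on the control arrays, which overlapped, with a difference of 1.54 ± 0.56. The lipid carrier apoeb was at -0.34 ± 0.42. The 3 myelin markers had a median of -0.18, yet myelin basic protein (mbpa) was at 0.52, 0.44 and 0.54 on the fadrozole arrays, against 0.11, 0.09 and -0.28 on the control arrays. Its groups did not overlap, with a difference of 0.52 ± 0.23, and the claudin cldnk was at -0.18 ± 0.27. The median was 0.14 over 4 red blood cell markers, with the haemoglobin gene hbaa1 at -0.49 ± 0.28 and the anion exchanger slc4a1a at 0.60 ± 0.50. The 2 endothelial markers were the receptor gene kdrl at 0.28 ± 0.27 and the claudin cldn5a at -0.40 ± 0.40. Of 49 markers in all, her4.2 and ptprc had a limma p under 0.05 before adjustment, at 0.0223 and 0.0342, which is 4.08% of the markers against 4.09% of all genes, and 0 passed after adjustment. The part of cell makeup in the values of the oxidative phosphorylation genes was not tested.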

How the data were processed

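RNA of pooled telencephalons was hybridised to one-colour arrays after biotin labelling, per the labels' protocols. The deposited values are linear ratios, each probe set divided by its median over the 3 control arrays, since that median is exactly 1 in all 15617 deposited rows. How the arrays were scanned, scaled and summarised is not stated in the labels used here. Signal levels are lost, so no filter on dim probe sets was possible, and precision is limited by the number of arrays.

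The 115 control probe sets were left out, which left 15502. Ratios were put on the log2 scale, and each array's median deviation from the probe-set means was removed. The platform annotation gave 1 symbol to 10795 probe sets, updated through a RefSeq table (1 symbol changed; all 86 members found there). Probe sets were averaged per gene. Groups were compared over all 8793 genes with limma 3.58.1 (lmFit, then eBayes; R 4.3.3), by two-sided tests adjusted after Benjamini and Hochberg, and ± is the standard error unless SD is written. The fit was tested on simulated data with planted differences larger than that of any member and without slide runs. It was not tested on smaller differences.

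Members and lists were chosen with earlier results of these data known. Named members are the 4 with the smallest p in each complex, core subunits, members without overlap, those with discordant probe sets, and paralogue pairs; other lists give the 2 with the smallest p. Others were named for their role after values were seen. Sequences were not analysed here.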

Additional observations from a re-analysis of the deposited data

How the results depend on the processing

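No gene passed an adjusted p of 0.05 under any setting tested here, and the count at an unadjusted p under 0.05 was 178 with quantile normalisation, against 360 in the main setting, and 365 to 562 with 1 array left out. The members at an unadjusted p under 0.05 numbered 2 in the main setting (2.33%, against 4.09% of all genes) and 0 with quantile normalisation (2.02% of all genes). There was 1 member (1.16%) with plain median centring (4.14% of all genes), no shift removed (4.07%), array weights (4.99%) or the larger slide run alone (5.93%). The slide run as a block (4.99%) and the replicate block (5.44%) also gave 1 each. With 1 array left out 0 or 1 were found (4.15% to 6.39% of all genes), and with each gene's own variance 6 (6.98%, against 3.53%). The fit with the replicate number as a block left all differences as they were and gave 478 genes. Deviations of same-numbered arrays from their group means correlated across all genes at 0.07, 0.19 and 0.09 for replicates 1, 2 and 3. Across all genes every array correlated best with its own number, a hint from the data and not from a stated pairing. Replicate 2 of both groups makes up the smaller slide run, so number and run cannot be told apart for it. Across the 86 members alone the correlations were 0.36, -0.22 and -0.08, so the hint did not hold there for replicates 2 and 3. Members lower numbered 28 of 86 in the larger slide run alone and 26 to 60 with 1 array left out, the lowest without control replicate 2. Complex medians in the smaller slide run were -0.22 (I), -0.29 (IV) and -0.23 (V), and 0.11 (IV) in the larger one; with 1 array left out complex II ran from -0.026 to 0.22. In the larger slide run 32 of 86 members had the other direction, 26 of them higher there and lower over all arrays. For the members named by rule, the values with the other direction were as follows, and the cause was not tested. In the smaller slide run, with 1 array per group, atp5mc3a was 0.081, atp5mc3b -0.013, cox5aa -0.18, cox6b2 -0.081, cox7a2l -0.21, sdha -0.018 and uqcrfs1 -0.0021. In the larger slide run atp5f1b was 0.098, atp5mc1 0.088, atp5meb 0.029, cox4i1l 0.56, ndufa4a 0.078, ndufa4b -0.0046, ndufab1a 0.093, ndufs1 -0.063, uqcrb 0.11 and uqcrc2b -0.020. With plain median centring atp5mc3b was -0.023, cox5aa -0.019, ndufs1 -0.018 and uqcrc2b -0.038, and the median of all genes -0.04. With array weights atp5f1b was 0.0057, atp5mc1 0.0060 and ndufab1a 0.059. With quantile normalisation atp5mc1 was 0.024 and atp5mc3a 0.027, without the noisiest 10% of probe sets ndufb6 was -0.046, and with no shift removed uqcrc2b was -0.0015. With 1 array left out atp5f1b ran from -0.13 to 0.13, atp5mc1 from -0.080 to 0.045, atp5mc3a from -0.19 to 0.020, atp5mc3b from -0.053 to 0.079, atp5meb from -0.23 to 0.00039, cox4i1l from -1.42 to 0.23, cox5aa from -0.060 to 0.12, cox7a2l from -0.012 to 0.16, ndufa4a from -0.30 to 0.064, ndufa4b from -0.056 to 0.26, ndufab1a from -0.15 to 0.22, ndufs1 from -0.14 to 0.12, sdha from -0.035 to 0.26, uqcrb from -0.17 to 0.070 and uqcrc2b from -0.13 to 0.079. An offset of 16, planned for signal levels, was not run on ratios. Ratios give no signal over background, so weak probe sets could not be set apart.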

Other observations

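Further groups of mitochondrial and redox genes were measured. Of 19 genes of the mitochondrial import machinery (timm and tomm genes) 11 were lower, with a median log2 difference of -0.02. Those with the smallest p were timm21 at -1.83 ± 1.00, with fadrozole arrays at 0.30, -2.24 and -3.74 against -0.28, -0.25 and 0.37 on the control arrays, and the channel gene tomm40 at 0.58 ± 0.35. Of 13 antioxidant enzymes 8 were higher, with a median of 0.06. The glutathione peroxidase gpx1b was at -0.66, -1.05 and -0.45 on the fadrozole arrays, against 0.11, -0.15 and -0.41 on the control arrays, and catalase (cat) at 0.30, 0.56 and 0.44 against 0.11, 0.14 and 0.02. Neither gene's groups overlapped, at -0.57 ± 0.28 and 0.34 ± 0.22, and 0 genes of both lists had an unadjusted p under 0.05 in limma, against 4.09% of all genes.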
